A study of Rattus norvegicus with 8 samples.

Results

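The genes described here encode subunits of the high-voltage-activated calcium channels of the rat: the pore-forming subunits Cacna1a, Cacna1b, Cacna1c, Cacna1d and Cacna1e, the cytoplasmic β subunits Cacnb1, Cacnb2, Cacnb3 and Cacnb4, and the α2δ subunit Cacna2d1. They were taken by name from the array design, as 10 of 35608 gene names on the array, a rule that uses no measured value, although earlier results of these data were known when the group was chosen. All 19 probes that carry these names were followed, over 28 spots, and all 19 were measured well enough to be tested. Cacnb4 was the gene with the clearest difference between the groups, with every occluded animal below every control on both of its probes. Groups apart in that direction were found on 1.27% of all probes tested. Cacnb4 did not pass the test over all probes, and neither did any other member.

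The animals were 8 male Sprague-Dawley rats of 277 g, all under urethane anaesthesia and all fitted with a cuff that can close the trachea. In the occlusion group of 4 rats, the cuff was closed for 2 to 4 breaths and opened for 15 breaths or more, over and over for 10 min, and the brain was taken straight afterwards. In the control group of 4 rats the cuff was not closed and the brain was taken 70 min after surgery was set up. The sources used here give neither age nor the time from surgery to removal in the occlusion group, so time under anaesthesia and occlusion cannot be told apart. RNA of the medial thalamus of each rat was labelled with the red dye Cy5 and hybridised to 1 Agilent rat array together with a pool of all 8 animals in the green dye Cy3. Each value is therefore log2 of Cy5 over Cy3, animal over pool: 0 means the level of the pool, a positive value more RNA than the pool and a negative value less, and levels of different genes cannot be compared through it.

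High-voltage-activated calcium channels open when a neuron is strongly depolarised and let calcium in. The pore-forming α1 subunit sets the current type: Cacna1a carries the P/Q-type and Cacna1b the N-type current that trigger transmitter release at nerve endings, Cacna1c and Cacna1d carry L-type currents of cell bodies and dendrites, and Cacna1e carries the R-type current. The β subunits bind the α1 subunit inside the cell, bring it to the membrane and shift its gating. The α2δ subunits sit outside the membrane and raise the number of channels at the surface, and some of them bind gabapentin. In thalamic relay neurons such channels act beside the low-voltage-activated T-type channels, which are known for the burst firing of the thalamus and are not members here.

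The arrays gave a median Cy5 signal of 3.65 to 4.67 times background, and 68.25% to 80.17% of spots were well above background. The lowest share was that of control 1, which also had 853 outlier spots, against 136 to 423 on the other arrays. The arrays lay on 2 slides, slide 1 with occlusion 1 and 2 and control 3 and 4, and slide 2 with the others. One control animal, control 3, stood apart from the rest. Over 9 tested relay neuron markers, of 12, its mean log2 ratio was -1.997, while the other 7 animals ran from -0.33 to 0.24. Over the 5 tested cortex markers, of 12, its mean was 2.06, while the others ran from -1.66 to -0.61. Its meningeal markers were at 0.96, against -0.56 to 0.10. The thalamic marker Slc17a6, the vesicular glutamate transporter of relay neurons, was at -2.99 in control 3, which goes against its label as medial thalamus, and all 9 relay markers were well above background on every array. The members' differences below are therefore given with and without this animal. The 6 tested choroid plexus markers, of 8, had a median log2 difference, occlusion minus control, of 0.76, and of 0.49 without control 3. Their mean ran from -0.92 to 0.80 under occlusion and from -1.46 to -0.76 in controls, and 0 of the 6 had an adjusted p under 0.05 (limma). The part of these markers in the members' values was not tested. In pieces of tissue such as these, fewer cells of a type and less RNA per cell cannot be told apart.

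No member passed the test between occlusion and control. Of the 19 probes, 0 had an adjusted p under 0.05 (limma over all 31689 probes tested, Benjamini-Hochberg), as did 0 of all probes (0.0%), and the smallest adjusted p among the members was 0.977. An unadjusted p under 0.05 was found for 2 member probes, both of Cacnb4 and both with occlusion lower, beside 969 of all probes (3.06%, of which 1.81% with occlusion higher and 1.25% with it lower). The members' log2 differences, occlusion minus control, were above 0 for 7 probes and below 0 for 12, with a median of -0.05, while 50.7% of all probes were above 0 with a median of 0.0019. The median size of the difference, whatever its sign, was 0.07 for the members and 0.07 for all probes. Without control 3, 0 members passed (0.00316% of all probes), 2 had an unadjusted p under 0.05 (4.12%), and the sign of 8 of the 19 differences turned.

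**Figure D1:**
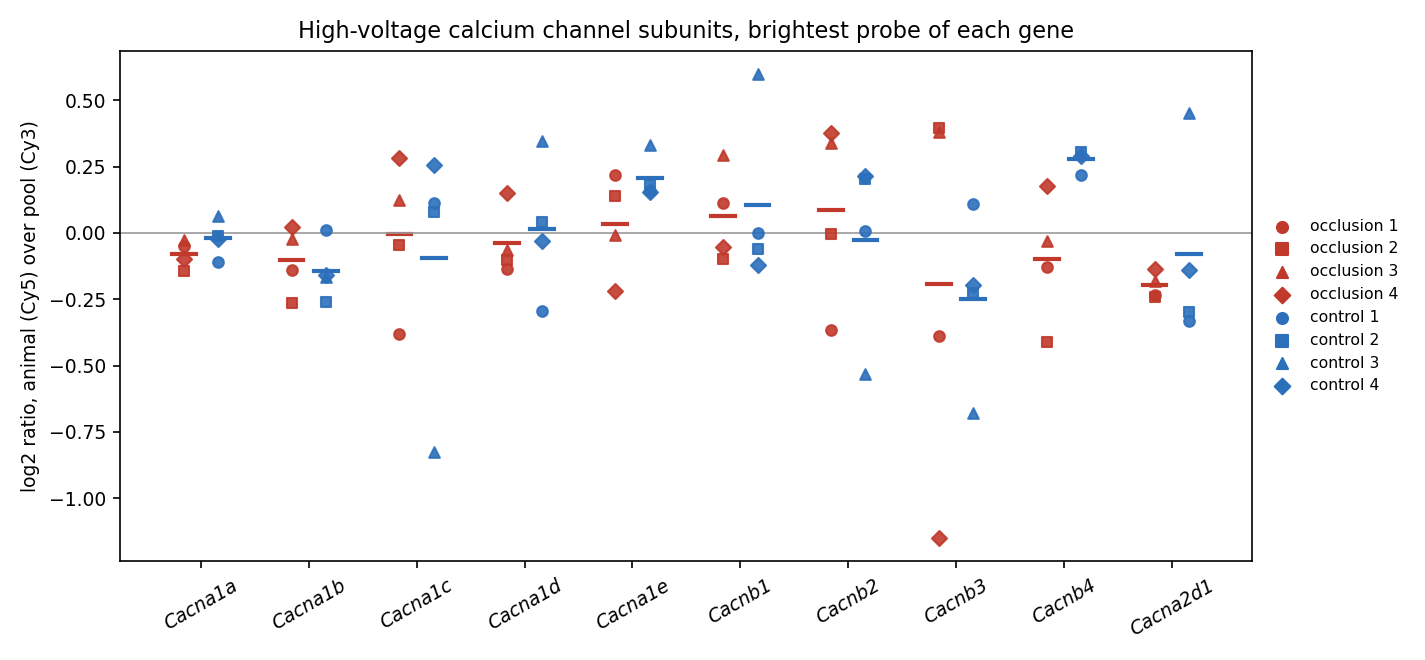
Log2 ratio of each animal over the pool (vertical axis) for the brightest probe of each of the 10 genes (horizontal axis), with occlusion in red, control in blue, 1 symbol per replicate number and a bar at the group mean (n = 4). Only for Cacnb4 do the groups not overlap, which 2.5% of all probes tested showed. Cacnb3 has the widest spread. Control 3 (blue triangle) is the lowest point for Cacna1c and Cacnb2 and the highest for Cacna1a, Cacna1d, Cacna1e, Cacnb1 and Cacna2d1.

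**Figure D2:**
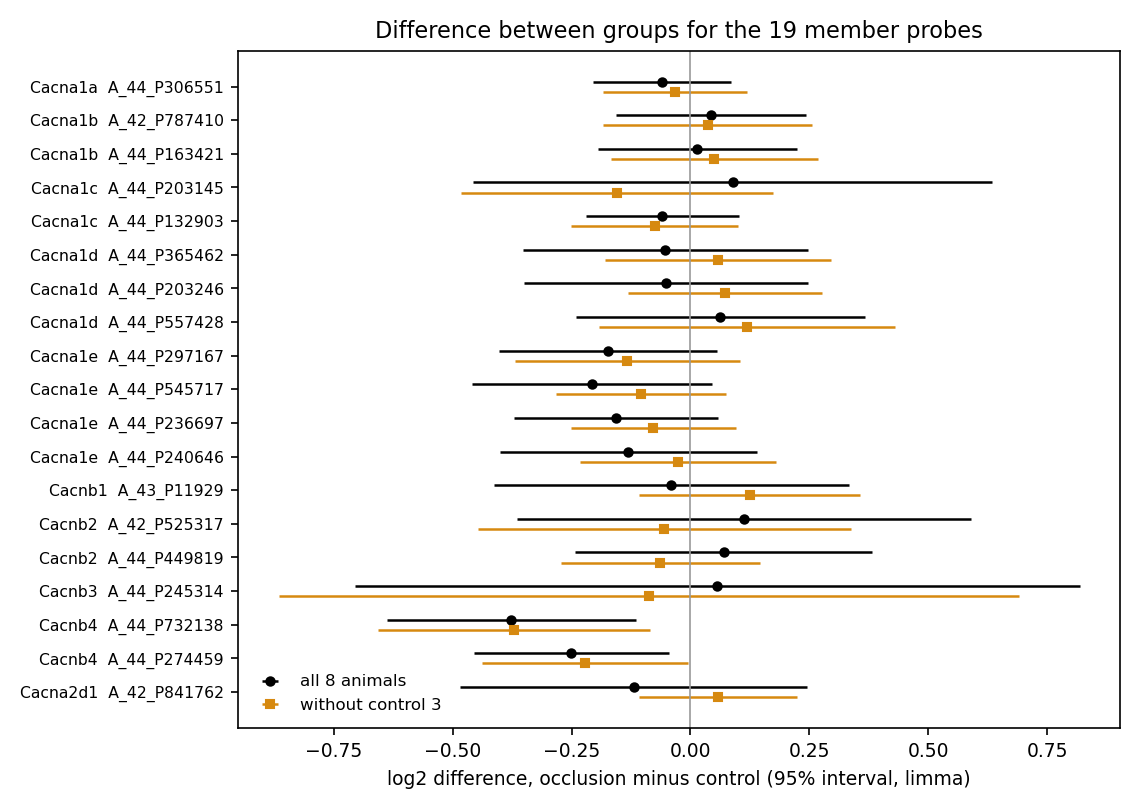
Log2 difference of occlusion minus control (horizontal axis) for all 19 member probes, with its 95% interval from limma, over all 8 animals in black and without control 3 in orange. Both intervals of each Cacnb4 probe lie below 0, and the interval of each other probe spans 0.

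Cacnb4 encodes the β4 subunit, a partner of P/Q-type channels in the brain, whose loss causes seizures and ataxia in the lethargic mouse. Its probe A_44_P732138 lies at chr3:33829675-33829734 on the minus strand of the rn3 build and read -0.13, -0.41, -0.03 and 0.18 in the occluded animals, numbered 1 to 4, and 0.22, 0.30, 0.30 and 0.29 in the controls, numbered likewise. The highest occluded animal was below the lowest control, and the occluded animals were spread over a wider range than the controls. The occlusion mean was -0.10 ± 0.24 (SD, n = 4), and the control mean 0.28 ± 0.04 (SD, n = 4). The difference was -0.38 with a standard error of 0.12 and a 95% interval of -0.64 to -0.12 (limma unadjusted p = 0.0099, adjusted p = 0.977). The two-sided exact permutation p was 0.029, the smallest that 4 against 4 animals allow.

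The second Cacnb4 probe, A_44_P274459 at chr3:33831399-33831458, lies close by on the same strand. It read -0.23, 0.03, 0.02 and 0.16 under occlusion and 0.23, 0.24, 0.33 and 0.18 in controls. Again no occluded animal reached the lowest control, although occlusion 4, at 0.16, came close to control 4, at 0.18. The difference was -0.25 with a standard error of 0.09 and a 95% interval of -0.46 to -0.05 (limma adjusted p = 0.977), with an exact permutation p of 0.029. These were the only member probes with groups that do not overlap in either direction, which 2.5% of all probes showed. With occlusion lower, it was 1.27% of all probes. Both probes report the same gene from the same RNA, so they are not independent evidence of it.

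The Cacnb4 differences were nearly as large without control 3. They were then -0.37 and -0.22, with limma adjusted p = 0.932 for each and an exact permutation p of 0.057 for each, the smallest that 4 against 3 animals allow. Within slide 1 the differences were -0.57 and -0.36, and within slide 2 they were -0.19 and -0.14, with 2 animals a group on each slide. The differences on slide 2 were thus smaller than those on slide 1. The test of that difference between slides gave an adjusted p of 0.878 for each probe, and 0.0% of all probes passed it. On the scanner software's own log ratios the differences were -0.38 and -0.40. Without background correction they were -0.39 and -0.24, and with scale normalisation between arrays -0.33 and -0.18. The second probe then had a limma unadjusted p of 0.069 and 0.084. Control 3 was at 0.30 on the first probe, within the range of the other controls, and at 0.33 on the second, above them.

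**Figure D3:**
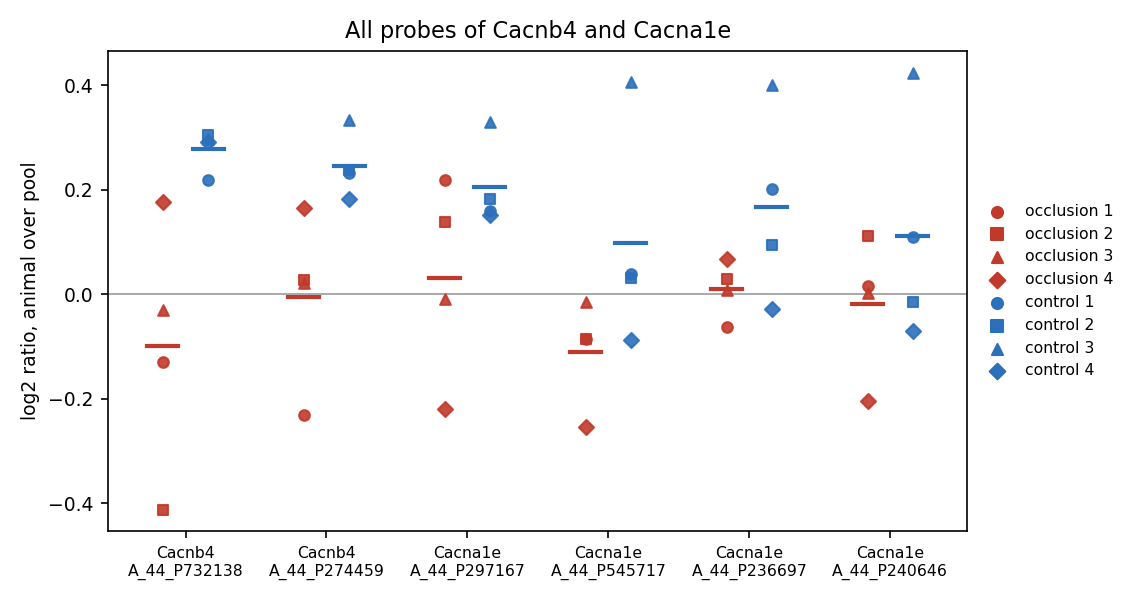
Log2 ratio over the pool (vertical axis) on the 2 Cacnb4 and 4 Cacna1e probes (horizontal axis), 1 symbol per animal, occlusion in red and control in blue, bars at the group means (n = 4). On both Cacnb4 probes every occluded animal is below every control, as on 1.27% of all probes tested. On all 4 Cacna1e probes the occlusion mean is lower while the animals overlap and control 3 is the highest.

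Cacna1e encodes the pore of the R-type channel. All 4 of its probes, spread from chr13:69381412-69381471 to chr13:69697907-69697966 on the minus strand (rn3), had a lower mean under occlusion, and none passed the test. Probe A_44_P297167 read 0.22, 0.14, -0.01 and -0.22 under occlusion and 0.16, 0.18, 0.33 and 0.15 in controls. Occlusion 1 was above all controls but control 3, so the groups overlapped. The difference was -0.17 with a 95% interval of -0.40 to 0.06 (limma adjusted p = 0.977), with an exact permutation p of 0.200. On probe A_44_P545717 the values were -0.09, -0.09, -0.01 and -0.25 under occlusion against 0.04, 0.03, 0.41 and -0.09 in controls. There the difference was -0.21, with a 95% interval of -0.46 to 0.04 and an exact permutation p of 0.114.

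The other Cacna1e probes, A_44_P236697 and A_44_P240646, differed by -0.16 and -0.13. Control 3 was the highest of all 8 animals on each of the 4 probes, at 0.33 to 0.42, and without it the differences shrank to -0.13, -0.10, -0.08 and -0.03. In the order named, the probes had a median Cy5 signal of 8.69, 3.73, 3.02 and 2.58 times background, beside array medians of 3.65 to 4.67. Normexp with its offset of 50 draws the ratios of dim spots toward 0. With an offset of 16 the differences were -0.19, -0.26, -0.20 and -0.18. Without background correction they were -0.18, -0.22, -0.17 and -0.08. The part of normexp in these differences was not tested further. On the ratios of the scanner software the differences were -0.28, -0.47, -0.38 and -0.25, still with the smallest adjusted p over all members at 0.967. The 4 probes thus had 1 direction but report 1 gene in the same animals.

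Cacna1a and Cacna1b carry the currents of the release site, and their differences were near 0 on the normexp ratios. The probe of Cacna1a, A_44_P306551 at chr19:25199614-25199673 (rn3), read -0.05, -0.14, -0.03 and -0.10 under occlusion and -0.11, -0.01, 0.06 and -0.02 in controls. These values overlapped and spanned only 0.21, a spread over 8 animals at the 5.42 percentile of all probes tested. The difference was -0.06 with a 95% interval of -0.21 to 0.09, and an exact permutation p of 0.200, and it was -0.03 without control 3. With the scanner's own log ratios it was -0.23 (limma unadjusted p = 0.035, adjusted p = 0.967), at a signal of 4.61 times background. Cacna1b, by probe A_42_P787410, read -0.14, -0.26, -0.02 and 0.02 under occlusion and 0.01, -0.26, -0.17 and -0.16 in controls. Its difference was 0.04 with a 95% interval of -0.16 to 0.24, and its second, dimmer probe A_44_P163421 differed by 0.01. Without control 3 these were 0.04 and 0.05. The Cacna1b probes had spreads at the 35.04 and 38.57 percentiles of all probes. No difference passed the test with 4 animals a group, and the intervals bound the size of each on the normexp ratios only.

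Cacna1c, the main L-type pore of the brain, was measured with more spots than any other member. Probe A_44_P203145 at chr4:155140815-155140874 (rn3, minus strand) is printed 10 times on each array. It read -0.38, -0.04, 0.12 and 0.28 under occlusion and 0.11, 0.08, -0.82 and 0.26 in controls. Control 3 was far below the others and occlusion 1 was the next lowest, and the groups overlapped. The repeated spots of 1 array, which show technical spread only, had a median SD of 0.05, with 0.13 and 0.17 in control 1 and control 2. The difference was 0.09 with a 95% interval of -0.46 to 0.63 (limma adjusted p = 0.986), and -0.15 with an interval of -0.48 to 0.17 without control 3. A second probe, A_44_P132903, was well above background on only 5 arrays, at 1.71 times background, and differed by -0.06, and by -0.07 without control 3.

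**Figure D4:**
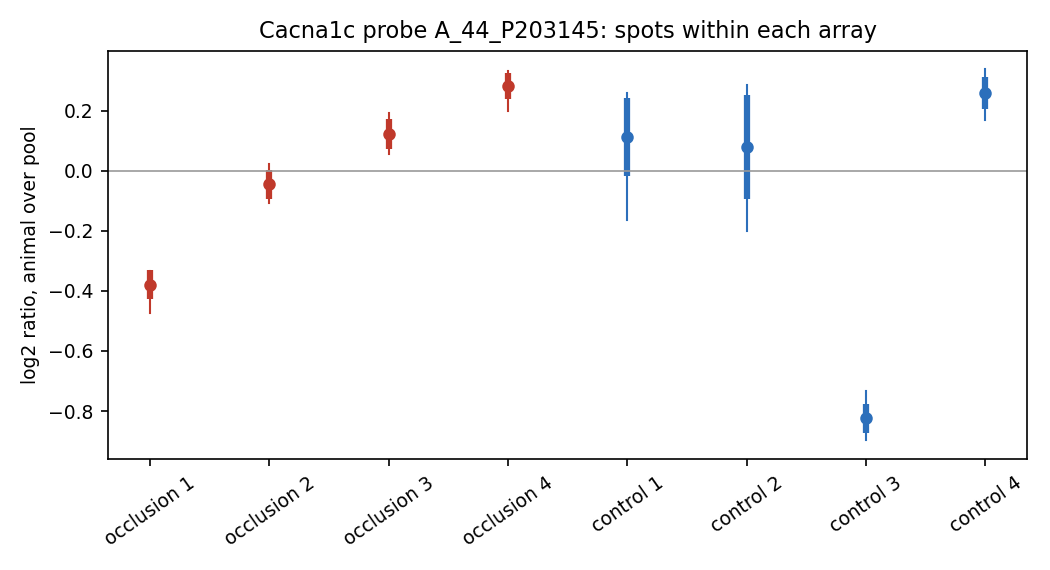
Log2 ratio over the pool (vertical axis) of the repeated spots of Cacna1c probe A_44_P203145 in each animal (horizontal axis), as the mean (point), 1 SD (thick line) and full range (thin line) over 9 or 10 spots of an array. The spots of control 3 lie between -0.90 and -0.73 and those of occlusion 1 between -0.47 and -0.33, apart from the spots of every other animal.

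Cacnb2, the β2 subunit best known as a partner of L-type pores, had a like order of animals. Probe A_42_P525317 at chr17:89089092-89089151 (rn3, plus strand) read -0.37, 0.00, 0.34 and 0.38 under occlusion and 0.01, 0.20, -0.53 and 0.22 in controls. The second probe, A_44_P449819, read -0.25, -0.10, 0.05 and -0.01 under occlusion and -0.14, 0.04, -0.55 and 0.05 in controls. On both probes control 3 was the lowest animal and occlusion 1 the next. The differences were 0.11, with a 95% interval of -0.36 to 0.59, and 0.07, and without control 3 they were -0.06 and -0.06.

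The animals that were low for Cacna1c and Cacnb2 were also the lowest on the relay neuron markers. The mean of the 9 tested relay markers of 12 was -0.33 in occlusion 1, -1.997 in control 3 and from 0.11 to 0.24 in the remaining 6 animals. By group it ranged from -0.33 to 0.18 under occlusion and from -1.997 to 0.24 in controls. The median log2 difference of the 9 relay markers, all above 0, was 0.43, which was -0.13 without control 3. On markers of neurons in general control 3 was also the lowest animal, by a small gap, at -0.21 beside -0.15 to 0.31 in the others. Those 7 markers were split in control 3. Tubb3, Nefl, Nefm and Stmn2 were between -0.69 and -0.27, and Eno2, Elavl4 and Map2 between 0.01 and 0.36. On the 6 inhibitory neuron markers control 3 was the highest animal, at a mean of 1.30, and occlusion 1 the next, at 0.68. Occlusion 4 followed at 0.44. The median log2 difference of these 6 was 0.17, with 3 above 0, and 0.70 without control 3, with all 6 above 0. The part of these markers in the values of Cacna1c and Cacnb2 was not tested.

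**Figure D5:**
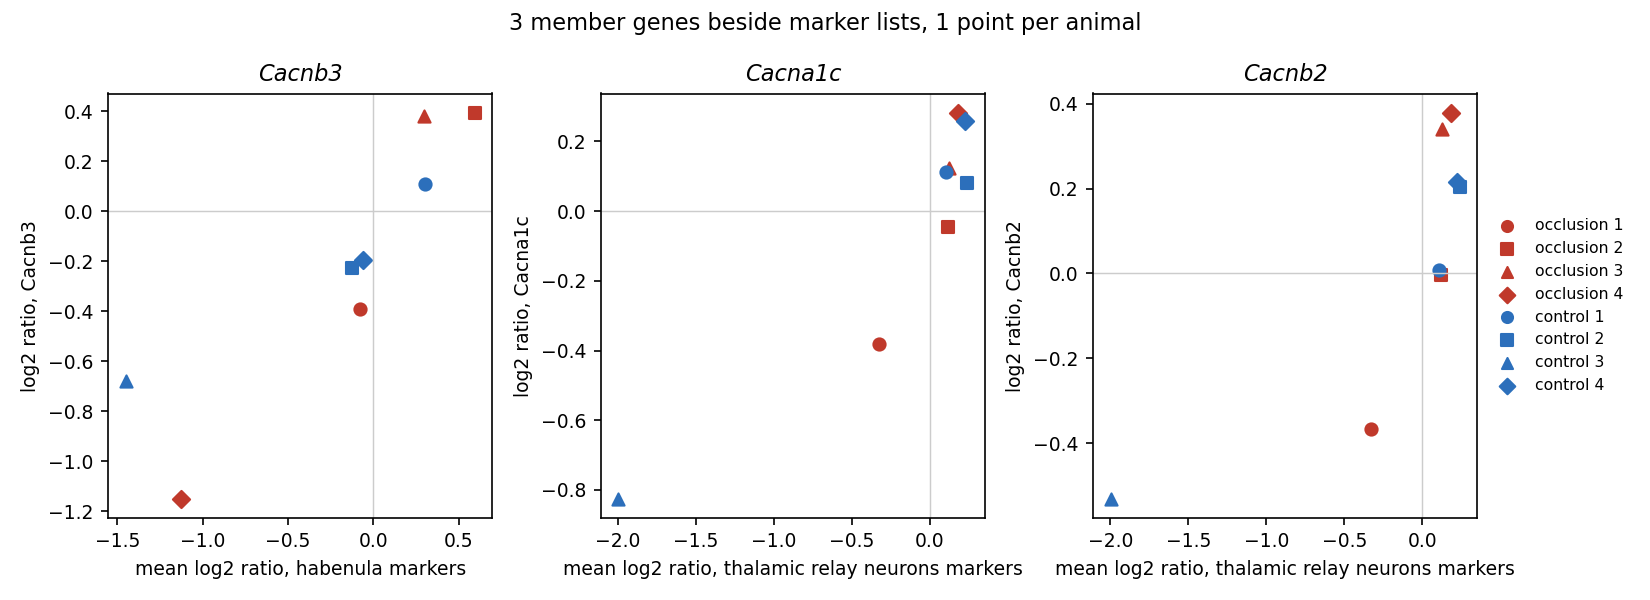
Log2 ratio over the pool of Cacnb3, Cacna1c and Cacnb2 (vertical axes) beside the mean log2 ratio of the habenula markers or of the relay neuron markers (horizontal axes), 1 symbol per animal. In the Cacna1c and Cacnb2 panels control 3 is alone at the lower left, at -1.997 on the horizontal axis. Occlusion 1 is the next lowest on both axes. At -0.33 on the horizontal axis it is nearer to the other 6 animals, at 0.11 to 0.24, than to control 3. In the Cacnb3 panel occlusion 4 and control 3 are at the lower left.

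Promoter sequences are shown for these genes because they were low in the same animals, and for Cacnb3 because it varied most. Each is the 250 bases before the gene's start in RefSeq's annotation of the GRCr8 build, 5′ to 3′ on the gene's strand, with GGGCGG (the GC box) and TGACG (the core of the cyclic AMP response element) in capitals, on either strand. Cacna1c lies at chr4:154051749-154051998 on the minus strand. Cacnb2 has 2 starts, at chr17:82472965-82473214 and chr17:82596542-82596791 on the plus strand, and Cacnb3 lies at chr7:131666301-131666550 on the plus strand.
Cacna1c: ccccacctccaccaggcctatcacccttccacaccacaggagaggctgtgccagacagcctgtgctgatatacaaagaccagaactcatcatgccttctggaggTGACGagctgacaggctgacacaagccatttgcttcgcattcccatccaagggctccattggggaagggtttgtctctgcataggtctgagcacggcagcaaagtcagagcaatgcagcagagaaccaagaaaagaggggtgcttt
Cacnb2 first start: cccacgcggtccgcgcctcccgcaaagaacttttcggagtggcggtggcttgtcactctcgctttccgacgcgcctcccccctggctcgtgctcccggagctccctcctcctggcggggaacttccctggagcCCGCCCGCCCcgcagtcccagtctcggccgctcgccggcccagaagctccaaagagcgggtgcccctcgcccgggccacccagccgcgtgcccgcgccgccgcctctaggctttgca
Cacnb2 second start: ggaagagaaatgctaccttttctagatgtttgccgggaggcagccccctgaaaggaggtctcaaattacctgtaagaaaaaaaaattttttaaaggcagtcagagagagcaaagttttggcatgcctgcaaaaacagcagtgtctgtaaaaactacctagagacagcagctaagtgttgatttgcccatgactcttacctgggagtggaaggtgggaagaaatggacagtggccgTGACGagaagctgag
Cacnb3: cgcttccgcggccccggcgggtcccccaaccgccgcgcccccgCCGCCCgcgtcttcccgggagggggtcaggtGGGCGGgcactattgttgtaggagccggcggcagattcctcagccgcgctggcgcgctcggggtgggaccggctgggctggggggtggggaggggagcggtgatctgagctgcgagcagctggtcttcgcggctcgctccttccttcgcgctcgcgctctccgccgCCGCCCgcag

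The windows differed in base composition. The Cacna1c window had 54.4% G and C, the first Cacnb2 window 73.2% and the second 45.6%, against a median of 51.2% over all 33469 windows. The first Cacnb2 window held 2 copies of GGGCGG and the Cacnb3 window 3, overlaps counted, while the Cacna1c window held none, and 30.467% of all windows held at least 1. TGACG stood once in the Cacna1c window and once in the second Cacnb2 window, and 18.217% of all windows held it. The complete element TGACGTCA, which 1.587% of windows held, and TATAAA, which 12.931% held, were in none of the 11 windows of the 8 members that the table lists. Cacnb1 and Cacnb4 were not matched in it. A match of letters is a description of the sequence and says nothing of which factor binds there.

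Cacnb3, the β3 subunit, a common partner of N-type channels, varied more between animals than any other member. Probe A_44_P245314 at chr7:137470609-137470668 (rn3, plus strand) read -0.39, 0.39, 0.38 and -1.15 under occlusion and 0.11, -0.23, -0.68 and -0.19 in controls. Occlusion 4 was the lowest and control 3 the next lowest, and the occluded animals held both the highest and the lowest values. Its signal ran from 13517 to 47722 intensity units above background without saturation, so these ratios are not those of a dim spot. The spread over the 7 animals other than control 3 had an SD of 0.53, at the 99.0 percentile of all probes. The difference was 0.06 with a standard error of 0.34 and a 95% interval of -0.71 to 0.82 (limma adjusted p = 0.993), and -0.09 without control 3. On slide 1 it was 0.44 and on slide 2 -0.33, and the test of the difference between slides gave an adjusted p of 0.879.

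The habenula, which borders the medial thalamus, has markers that were low in the same animals. The mean of the 5 tested habenula markers of 6 read -0.08, 0.60, 0.30 and -1.13 under occlusion and 0.30, -0.13, -1.45 and -0.06 in controls. Occlusion 4 and control 3 were thus the lowest on these markers and on Cacnb3, and occlusion 2 was the highest on both. Within occlusion 4, Gpr151 was at -1.90 and Chrna3 at -0.94. The 5 log2 differences were all above 0 with a median of 0.25, which was -0.17 without control 3. The part of the habenula markers in the values of Cacnb3 was not tested.

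Among 10042 named genes measured in all 8 animals, those with the pattern most like that of Cacnb3 were Tac3 (Pearson r = 0.99 over 8 animals), Rragc (0.97), Nudt16 (0.96), Fgfr4 (0.94) and Htr5b (0.94). Tac3, which the array design calls Tac2 and which encodes neurokinin B, is itself one of the 5 habenula markers. It ranged from -1.54 to 0.69 over the 7 animals other than control 3, and Htr5b, a serotonin receptor, from -1.32 to 0.48. Over those 7 animals the 5 genes were Rragc (r = 0.99), Tac3 (0.98), Slc18a3 (0.98), Pou3f1 (0.98) and Gng8 (0.97). Rragc, a small GTPase that signals amino acid supply to mTORC1, ranged only from -0.26 to 0.04, and Slc18a3, the vesicular acetylcholine transporter, from -1.43 to 0.69. Control 3 was at -0.10 for Rragc and at 1.23 for Pou3f1, where Cacnb3 was at -0.68. These coefficients describe the same few arrays from which the genes were picked.

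The remaining members were high in control 3. Cacnb1, the β subunit first found in skeletal muscle, read 0.11, -0.10, 0.30 and -0.05 under occlusion and 0.00, -0.06, 0.60 and -0.12 in controls by probe A_43_P11929 at chr10:86778659-86778718 (rn3). Its difference was -0.04 with a 95% interval of -0.41 to 0.33, and 0.12 without control 3. Cacna2d1, the α2δ-1 subunit, read -0.23, -0.24, -0.18 and -0.14 under occlusion and -0.33, -0.30, 0.45 and -0.14 in controls by probe A_42_P841762 at chr4:15139912-15139971 (rn3). The 7 animals other than control 3 had an SD of 0.08, and control 3 was above all of them. The difference was -0.12 with a 95% interval of -0.48 to 0.25, and 0.06 with an interval of -0.11 to 0.22 without control 3. It was -0.39 on slide 1, which holds control 3, and 0.16 on slide 2 (adjusted p of the difference between slides = 0.878, limma).

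Cacna1d, the second L-type pore of the brain, had 3 probes, of which A_44_P365462 and A_44_P557428 both had control 1 lowest, occlusion 1 next and control 3 highest. Probe A_44_P365462 at chr16:5465136-5465195 (rn3) read -0.13, -0.10, -0.07 and 0.15 under occlusion and -0.29, 0.04, 0.35 and -0.03 in controls, a difference of -0.05 with a 95% interval of -0.35 to 0.25. Probe A_44_P203246 also differed by -0.05. Probe A_44_P557428 differed by 0.06, and control 1 was at -0.47 there while the other controls were between 0.06 and 0.13. Without control 3 all 3 were above 0, at 0.06, 0.07 and 0.12.

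Control 3 stood outside the other animals on most of these probes. It lay above all 7 other animals on 11 of the 19 probes and below all of them on 3, while 24.3% of all probes had it above and 24.4% below. The probes where it was highest are those of Cacna1e, Cacnb1 and Cacna2d1, all 3 probes of Cacna1d, the probe of Cacna1a and A_44_P274459 of Cacnb4. The median SD over 8 animals was 0.19 for the members and 0.14 for all probes, and over the 7 other animals it was 0.12 for both. The treatment difference had opposite signs on the 2 slides for 9 of the 19 probes, and 0 passed the test of that difference (0.0% of all probes passed).

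The other subunits of these channels gave no call. Of 13 such genes 11 were tested, by the brightest probe of each, and Cacna1f and Cacna2d4 were not. In this list 4 were above 0 and 7 below, with a median log2 difference of -0.04 (-0.05 without control 3), and 0 passed. Cacng4, a γ subunit that also escorts AMPA receptors, had the highest difference at 0.28, where control 1 was at -0.71 and the occluded animals between -0.11 and 0.10. Cacng3, another such subunit, was at the other end with -0.28, and with -0.12 without control 3. The α2δ genes Cacna2d2 and Cacna2d3 differed by 0.19 and -0.18, and by 0.10 and -0.22 without control 3, so the 3 tested genes of that family did not share a sign. Cacng5, measured in 3 occluded animals, differed by 0.21, Cacng8 by -0.12, and Cacng1, Cacng2, Cacng6, Cacng7 and the muscle pore Cacna1s by -0.05 to 0.05, which became -0.13 to 0.09 without control 3. Cacng8 had control 3 at 0.69 and the other animals from -0.40 to -0.07, and its difference turned to 0.12 without control 3.

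Proteins that act on the channels were divided. Of 17 tested GTPases, calcium sensors and kinase genes 7 were above 0 and 10 below, with a median of -0.01 and 0 passing. Without control 3 the median was 0.02, with 10 above 0. Gem, a GTPase that blocks the channels through their β subunits, differed by 0.36, but it was well above background on only 4 arrays, and control 1 was at -1.18. Without control 3 it differed by 0.55 (limma unadjusted p = 0.030, adjusted p = 0.932). Akap7, an anchor of protein kinase A, differed by 0.19, and by 0.10 without control 3. Of 19 tested release-site genes 6 were above 0 and 13 below, with a median of -0.05. Without control 3 the median was -0.02, with 8 above 0. Rims1, which tethers the channels at the release site, read -0.23, -0.18, -0.0020 and 0.05 under occlusion and 0.18, 0.44, 0.26 and 0.04 in controls. Only control 4 lay within the occluded range, and the difference was -0.32 (limma unadjusted p = 0.012, adjusted p = 0.977, exact permutation p = 0.057), and -0.31 without control 3. In the same list Syt2, a calcium sensor for release, differed by 0.53 with occlusion 1 at 0.86, and by 0.62 without control 3 (limma unadjusted p = 0.048, adjusted p = 0.932), and Stx1a, the syntaxin of the release machine, by -0.34, which was -0.16 without control 3.

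Downstream of calcium entry, 16 of 17 tested effector genes were below 0 with a median of -0.17, and 0 passed. This list had control 3 at a mean of 0.34 and the other 7 animals between -0.20 and -0.05, and without control 3 the median was -0.08 with 4 genes above 0. Camk2b, a subunit of the calcium/calmodulin-dependent kinase II, differed by -0.32 over 4 occluded animals and 3 controls (limma unadjusted p = 0.041, adjusted p = 0.977, exact permutation p = 0.114). Without control 3 it differed by -0.25 and the unadjusted p was 0.112 (limma). Kcnn2, a calcium-activated potassium channel, differed by -0.25, and by -0.11 without control 3. Camk4, where occlusion 1 was at -0.45, differed by -0.17, and by -0.18 without control 3. Of 13 tested pump, exchanger and store genes 6 were above 0 and 7 below, with a median of -0.04, which became 0.09 without control 3. In that list the sodium-calcium exchanger Slc8a3 differed by 0.20, the inositol trisphosphate receptor Itpr1 by -0.32 and the plasma membrane pump Atp2b1 by -0.39, with animals of both groups from -1.07 to 0.42. Without control 3 these were 0.12, -0.15 and -0.34. The part of control 3's tissue in these medians was not tested.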

How the data were processed

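Total RNA of the medial thalamus of 8 rats was measured on 2-colour Agilent rat arrays, the animal in Cy5 and the pool in Cy3, and dyes were not swapped. The authors extracted the scans, per the file headers, with Agilent Feature Extraction 9.5.1.1. Spot intensity in the deposited files is the mean signal and median background of each channel, beside the software's log10 ratio of Cy5 over Cy3. The series' deposited value table repeats that log10 ratio for all 45018 spots of every array, within 1% or 0.001, which settles its scale and direction, while its centring is the software's. The direction of each ratio follows the dyes in the labels.

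Background was corrected with limma's normexp (offset 50), and loess normalisation ran inside each array, with weight 0 for control and outlier spots. After outlier spots were dropped, the mean over a probe's spots gave log2 values for 41012 probes, computed here from the deposited intensities. To be tested, a probe needed a Cy5 signal well above background on 4 or more of the 8 arrays and 2 or more values per group, which left 31689. They were fitted in limma 3.58.1 (R 4.3.3, lmFit and eBayes, two-sided), with Benjamini-Hochberg adjustment over all of them and a threshold of 0.05. Single probes were also tested by two-sided exact permutation of the animals. Intervals cover 95%. The fit was tested on simulated data. Figures were drawn with matplotlib 3.10.9.

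The members and the gene lists were chosen with earlier results of these data known, so a list's direction is no independent support. All members and all their probes are given. In each pathway list the 3 genes with the smallest unadjusted p are named, by the brightest probe, together with all tested genes of the list of other subunits. One gene that this rule names is not reported here. Gpr151, Chrna3 and Slc17a6 were named after their values were seen. Likeness to Cacnb3, the member with the largest SD over 8 animals, was measured by Pearson's r. Of the probes, 10735 were named through RefSeq accessions and the others kept a name of the array design. Probe positions are on the rn3 build, per the file headers, and the exon or UTR at each was not looked up. Alternatives changed the background correction, the normalisation, the source of the ratios, the filter on dim probes and the array weights, blocked by slide or by replicate number, took 1 slide at a time, or left out 1 animal at a time.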

Additional observations from a re-analysis of the deposited data

Results flagged for a closer look

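In 72 checks of 1 animal against the other 3 of its group, 12 values stood far from the rest, where chance gives about 1 in 20, and 8 of the 12 were of control 3. The checks share animals, and several share a gene, so they are not independent. An earlier look at these data had already found control 3 apart on region markers. Each value is a log2 ratio over the pool.

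Among the members, control 3 stood apart for Cacna1c on probe A_44_P203145, at -0.82 against 0.08 to 0.26 in the other controls. It did so for Cacna1e on A_44_P297167, at 0.33 against 0.15 to 0.18, and for Cacnb1, at 0.60 against -0.12 to 0.00. Control 1 stood apart for Cacna1d on A_44_P557428, at -0.47 against 0.06 to 0.13. It also did for Cacnb4 on A_44_P732138, at 0.22 against 0.29 to 0.30, a small gap in a tight group that left it above every occluded animal.

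Among the list means, control 3 was at 0.28 for the GTPases and sensors, against -0.13 to -0.10 in the other controls, and at 0.34 for the effectors, against -0.12 to -0.05. Occlusion 1 was at -0.069 for the release-site genes, against -0.134 to -0.127 in the other occluded animals. The marker means of control 3 were -1.997 for relay neurons (others 0.11 to 0.24), 2.06 for cortex (others -1.66 to -1.45) and 0.96 for meninges and fibroblasts (others -0.56 to -0.41). Occlusion 1 was at -0.33 for relay neurons, against 0.12 to 0.18 in the other occluded animals.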

How the results depend on the processing

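Every alternative left 0 member probes past the threshold in limma, and 1 to 4 with an unadjusted p under 0.05. Over all probes 0 passed under each, except 1 without control 3, so the range with 1 animal left out was 0 to 1. All probes of Cacnb4, Cacna1e and Cacna1a, and A_44_P132903 of Cacna1c, kept their sign under every alternative run. The members' median of -0.053 ranged from -0.117 to -0.039 with 1 animal left out, the first without occlusion 3, and was 0.070 on slide 2 alone, -0.117 on slide 1 alone, -0.022 with array weights and -0.031 with the replicate block and weights. Replicate numbers did not pair the animals: same-numbered deviations correlated at -0.13, 0.13, 0.02 and 0.081, and none best with its own number. With a replicate block, 0 probes and 0 members passed and the median was -0.053.

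The other members' differences turned sign as follows, and the causes were not tested. Cacna1b A_44_P163421 was -0.079 on the deposited ratios, -0.080 on the software's, -0.050 with median centring, -0.015 without background correction, -0.034 with scale normalisation and -0.18 on slide 1, and its range with 1 animal left out was -0.042 to 0.065. Cacna1b A_42_P787410 was -0.0055 with scale normalisation and -0.040 on slide 1. Cacna1c A_44_P203145 was -0.096 with array weights and -0.020 with the replicate block and weights, with a left-out range of -0.15 to 0.21. Cacna1d A_44_P203246 was 0.069 with weights, 0.046 with scale normalisation and 0.15 on slide 2, with a left-out range of -0.12 to 0.073. A_44_P365462 was 0.17 on slide 2 (left-out range -0.16 to 0.058), and A_44_P557428 was -0.0010 with median centring and -0.092 on slide 1 (left-out range -0.082 to 0.12). Cacnb1 was 0.10 with weights, 0.015 with median centring, 0.27 with scale normalisation and 0.15 on slide 2 (left-out range -0.12 to 0.12). Cacnb2 A_42_P525317 was -0.022 with weights and -0.029 on slide 1 (left-out range -0.055 to 0.26), and A_44_P449819 was -0.047 with weights and -0.027 with block and weights (left-out range -0.063 to 0.14). Cacnb3 was -0.033 with block and weights and -0.33 on slide 2 (left-out range -0.14 to 0.38). Cacna2d1 was 0.16 on slide 2 (left-out range -0.20 to 0.058).

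Signal limits A_44_P132903, A_44_P163421 and A_44_P240646, at 1.71, 2.36 and 2.58 times background. The software's error per spot had a median over arrays of 0.20 to 0.86 log2 units on the member probes. With 4 animals a group, a difference such as that of Cacnb4 did not pass over all probes.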
